A study of Mus musculus with 9 samples.

Results

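The chitinase and chitinase-like genes of the mouse were measured in whole-lung RNA by 4 probes, 1 each for Chia1, Chil1, Chil3 and Chil4, out of 39464 probes and 25917 gene symbols on the array. They were chosen by the gene symbol, 1 probe a gene, in the deposited table, which uses the older names Chia, Chi3l1, Chi3l3 and Chi3l4. The lungs came from BALB/c mice of about 12 weeks of age, challenged with ovalbumin (OVA, an allergen used to provoke allergic airway inflammation) or given saline (PBS). By the labels, 4 arrays held a PBS-treated lung and 5 an OVA-challenged lung in channel 2 (Cy5), each beside a combined sample of the PBS-treated lungs in channel 1 (Cy3). Whether the lungs were from separate mice is not stated in the labels, so a p-value covers only the spread among these arrays, which may be technical. In whole lung fewer cells of a type and less RNA per cell cannot be told apart.

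Chitin is a polymer found in fungi, mites, insects and parasitic worms, and mammals break it down with chitinases. Chia1, the acidic mammalian chitinase, cuts chitin. Chil1, Chil3 and Chil4 share the fold of the enzyme but have lost the ability to cut chitin, and are secreted as lectins. Chil3 (Ym1) and Chil4 (Ym2) are near-identical rodent proteins, made in the lung mainly by macrophages and airway epithelium. The genes are known to be induced by the cytokines IL-4 and IL-13 through the transcription factor STAT6, and are widely used as markers of type 2 inflammation.

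Chia1, Chil3 and Chil4 are consecutive protein-coding genes on chromosome 3, and Chil1 lies on chromosome 1 beside Chit1, the other active chitinase. The stretches at their annotated starts (RefSeq, build GRCm38.p6) are shown because 3 of the genes sit side by side and because the data show how far the 4 moved together. All 4 members had 1 window of 300 bases at the start, of which 190 are shown. The shown stretches of Chia1, Chil1 and Chil4 end before the annotated start. That of Chil3 runs past it by 9 bases, with its TATAAA across the start. Each stretch has 190 bases and is written 5′ to 3′ on the strand of the gene. Capitals mark TTCNNNGAA, the palindrome bound by STAT factors, and the promoter element TATAAA.
Chil3, chr3:106167556-106167745, minus strand: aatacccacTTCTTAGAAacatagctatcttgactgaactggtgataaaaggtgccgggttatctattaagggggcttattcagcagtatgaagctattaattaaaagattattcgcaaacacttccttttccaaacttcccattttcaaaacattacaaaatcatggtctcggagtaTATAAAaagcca
Chil4, chr3:106219499-106219688, minus strand: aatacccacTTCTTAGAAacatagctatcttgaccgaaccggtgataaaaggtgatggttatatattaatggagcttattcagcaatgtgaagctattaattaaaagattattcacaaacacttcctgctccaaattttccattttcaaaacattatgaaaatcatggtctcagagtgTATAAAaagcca
Chia1, chr3:106113161-106113350, plus strand: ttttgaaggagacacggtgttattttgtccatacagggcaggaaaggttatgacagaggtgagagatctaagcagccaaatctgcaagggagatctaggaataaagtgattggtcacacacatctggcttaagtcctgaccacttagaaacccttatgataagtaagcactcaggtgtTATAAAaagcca
Chil1, chr1:134181966-134182155, plus strand: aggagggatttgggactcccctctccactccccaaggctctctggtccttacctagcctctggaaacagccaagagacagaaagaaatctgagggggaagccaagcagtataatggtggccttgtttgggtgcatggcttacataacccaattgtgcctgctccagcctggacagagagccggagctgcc

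The windows of Chil3 and Chil4 were identical at 251 of 271 aligned bases (92.6%). Both hold TTCTTAGAA, a match to TTCNNNGAA, which matches on both strands and overlaps no TATAAA. Over windows of 300 bases, 8.3% of the 32851 in RefSeq held TTCNNNGAA, 6.95% held TTC and GAA 4 bases apart, the spacing that STAT6 prefers, and 13.6% held TATAAA on either strand. That wider spacing was in none of the 4 windows. The chromosome 3 genes share tataaaaagcca, a run of 12 bases that 6 of the 32851 windows hold, and no motif searched was in the window of Chil1. A match is a description of the letters and not a binding site.

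All values are intensities on the authors' scale, which ran from 0.00055 to 70.15, with a median between 0.12 and 0.17 in each channel of each array. Ratios are channel 2 over channel 1, and "higher" and "lower" below mean the log2 ratio on the arrays labelled OVA against that on the arrays labelled PBS (limma, 39413 probes tested, Benjamini-Hochberg adjusted p under 0.05). The direction is not settled, because the single channels go against the labels, as the values of each member below show. If the sign of the OVA arrays' ratios is turned, the direction of all 4 members is exchanged. For other genes, a small change need not be exchanged. Across probes, pairs of PBS arrays had log2 ratios correlated at r between -0.266 and 0.105, and pairs of OVA arrays at r between 0.705 and 0.823. As a lung marker, Scgb3a2, a club cell secretoglobin, was bright in both channels: on the OVA arrays channel 1 averaged 39.45 and channel 2 averaged 25.01, against 28.25 in each channel of the PBS arrays.

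**Figure D1:**
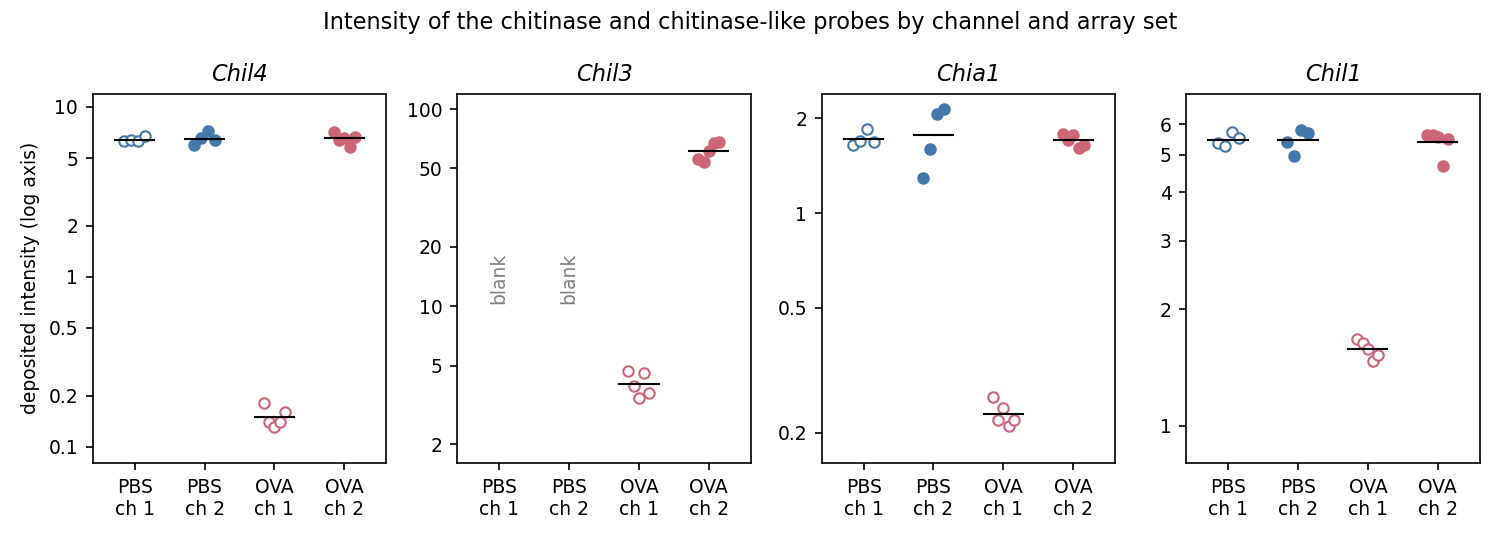
Deposited intensity (log axis, a separate range in each panel) of the 4 probes in channel 1 (open points) and channel 2 (filled points) of the 4 PBS and 5 OVA arrays, with the mean as a line. In each panel channel 1 of the OVA arrays is the low set, such as 0.13 to 0.18 for Chil4, and Chil3 is blank on the PBS arrays.

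Chia1, the active enzyme, had a channel 2 over channel 1 ratio near 1 on the PBS arrays and well above it on the OVA arrays. On the PBS arrays its channel 1 intensity was 1.64, 1.69, 1.85 and 1.68, and its channel 2 intensity 1.29, 1.6, 2.06 and 2.14 (replicates 1 to 4). On the OVA arrays channel 1 was at 0.26, 0.22, 0.24, 0.21 and 0.22, and channel 2 at 1.79, 1.71, 1.77, 1.61 and 1.65 (replicates 1 to 5). Channel 1 of the OVA arrays thus lay below every other value of the probe, and channel 2 of the OVA arrays lay within the range of the PBS arrays. In log2 terms the ratio differed by 2.87 ± 0.128 SE between 5 OVA and 4 PBS arrays, or 7.33-fold (limma adjusted p = 1.64e-06), where 33.9% of all probes were called. The groups did not overlap, as was so for 29.1% of probes.

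Chia1 was also the member that differed most between the PBS arrays, with log2 ratios of -0.35, -0.08, 0.16 and 0.35. Their SD of 0.30 exceeded that of 98.9% of the 7344 probes with a mean intensity over 1, whose median SD was 0.0663. In the authors' deposited table the p-value of Chia1 on these arrays was 0.02, 0.65, 0.33 and 0.03. Beside it, the median log2 ratio of 8 heart muscle markers was 0.15, 0.61, -0.48 and -0.75 on the same arrays, that of alveolar type 2 markers 0.03, 0.01, 0.14 and 0.08, and that of club cell markers -0.10, 0.06, 0.06 and -0.13. Their part in the spread of Chia1 was not tested. On the OVA arrays Chia1 ranged only from 2.78 to 2.96.

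Chil4, a chitinase-like lectin, showed the largest ratio of the family. Its channel 1 intensity was 6.29, 6.39, 6.29 and 6.76 and its channel 2 intensity 5.97, 6.55, 7.17 and 6.38 on the PBS arrays. On the OVA arrays channel 2 was at 7.13, 6.43, 6.59, 5.85 and 6.63, and channel 1 at 0.18, 0.14, 0.13, 0.14 and 0.16. In channel 1 the probe was therefore close to the median intensity of all probes on the OVA arrays and far above it everywhere else. In log2 terms the ratio differed by 5.43 ± 0.0863 SE, or 43.2-fold (limma adjusted p = 5.11e-08), which was rank 6 by size among all probes tested. With 0.05 added to both channels it was 32.6-fold. In the authors' deposited table the p-value of Chil4 lay between 0.31 and 0.84 on the PBS arrays and between 8.59e-40 and 2.06e-24 on the OVA arrays.

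Chil3, the close relative of Chil4, had no value in either channel of any PBS array and could not be compared between the groups. On the OVA arrays its channel 2 intensity was 55.94, 54.16, 61.23, 67.27 and 67.88, and its channel 1 intensity 4.69, 3.92, 3.44, 4.56 and 3.65. Channel 2 of Chil3 on each OVA array was above 52.95, the highest intensity on any PBS array. Within the OVA arrays channel 2 was 15.2-fold above channel 1 (log2 ratio 3.92 ± 0.264 SD, n = 5). The OVA mean differed from 0 (limma with all arrays in the fit, adjusted p = 4.06e-06), where 19.4% of probes were called above 0. A ratio against 0 leaves out the spread of the PBS lungs. Besides, 138 probes had a blank on at least 1 array, and 14 probes were blank on all PBS arrays and measured on all OVA arrays. The brighter channel of these averaged 35.6 to 61.7 on the OVA arrays. The 39326 probes measured on all arrays reached 49.27 at most. Chil3 thus stood at the top of the intensity scale, and no record of saturated spots was used. With quantile normalised intensities its log2 ratio was 3.55.

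Chil1 (BRP-39, the mouse form of human YKL-40) had the smallest ratio of the members. On the PBS arrays its channel 1 intensity was 5.36, 5.27, 5.73 and 5.52, and its channel 2 intensity 5.41, 4.98, 5.79 and 5.69. On the OVA arrays channel 2 was at 5.63, 5.61, 5.55, 4.67 and 5.51, and channel 1 at 1.67, 1.63, 1.58, 1.47 and 1.52. Again channel 1 of the OVA arrays lay apart from the other 3 sets of values, here by less than for Chia1 and Chil4. In log2 terms the ratio differed by 1.78 ± 0.0428 SE, or 3.43-fold (limma adjusted p = 1.45e-07), again with no overlap. On the PBS arrays it was the steadiest member with 4 values there, with log2 ratios between -0.08 and 0.04.

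**Figure D2:**
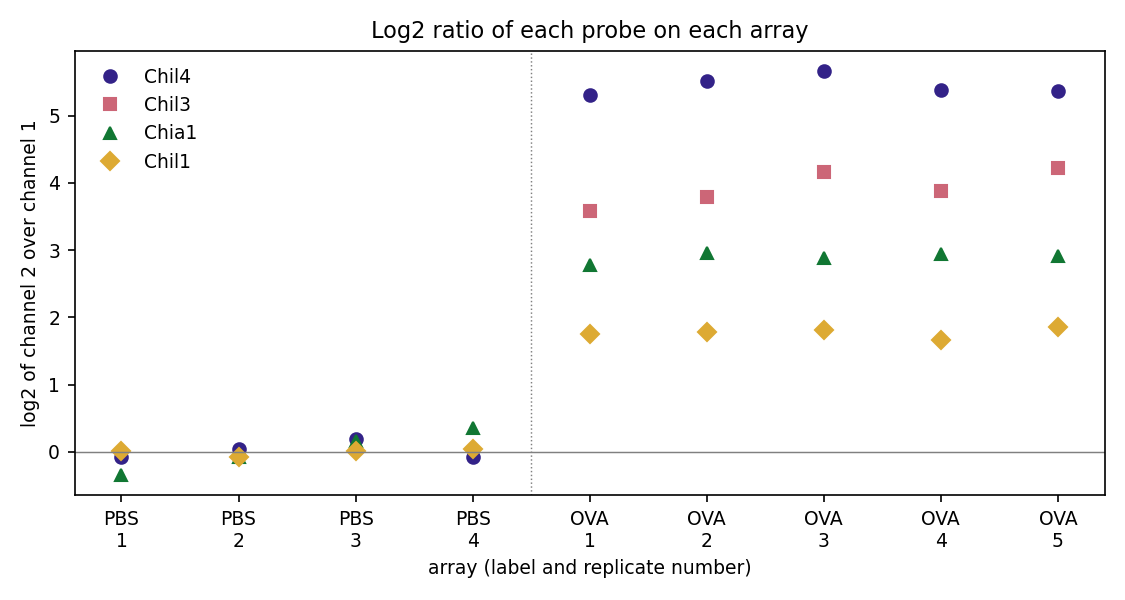
Log2 of channel 2 over channel 1 for each probe on each of the 9 arrays. On every OVA array the order is Chil4, Chil3, Chia1, Chil1, and on the PBS arrays the 3 probes with values lie between -0.35 and 0.35.

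All 3 members that could be tested were higher, where 15% of all probes tested were called higher and 18.9% lower, and for the same 3 all OVA arrays lay above all PBS arrays, where 12.8% of probes did so. Their median log2 change was 2.87, against -0.0052 over all probes tested. At least 2-fold and called higher were 1.82% of probes. On each OVA array the 4 log2 ratios stood in the same order, Chil4 above Chil3 above Chia1 above Chil1, and no neighbours in this order overlapped. Chil4 exceeded Chil3 by 1.16 to 1.73, Chil3 exceeded Chia1 by 0.79 to 1.31, and Chia1 exceeded Chil1 by 1.03 to 1.27 on the log2 scale within an array. Differences between Chil3 and Chil4 carry the limit that probes may not tell near-identical copies apart, and that Chil3 stands near the top of the scale.

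The arrays did not take the same order in each member. OVA replicate 1 had the lowest ratio for Chil4, Chil3 and Chia1, at 5.31, 3.58 and 2.78, and it had the highest channel 1 intensity of the OVA arrays for all 4 members. For Chil1 the lowest ratio was that of OVA replicate 4, at 1.67. Between the OVA arrays the SD of the log2 ratio was 0.0683 for Chia1, 0.0714 for Chil1, 0.142 for Chil4 and 0.264 for Chil3. Chil3 thus varied most in the ratio. Over the OVA arrays the channels of Chil3, and those of Chil4, were ordered differently, while those of Chil1 had the same order. So had those of Chia1, apart from a tie in channel 1 between replicates 2 and 5, both at 0.22.

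**Figure D3:**
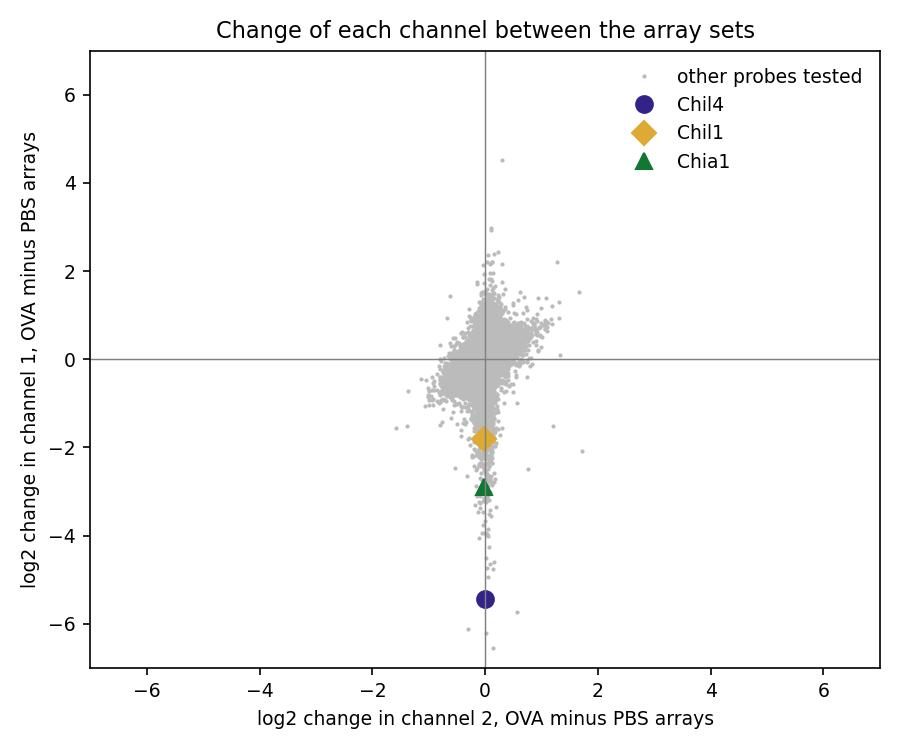
Log2 change between the OVA and PBS arrays in channel 1 (vertical axis) against that in channel 2 (horizontal axis) for each probe tested, with Chil4, Chia1 and Chil1 as large symbols. The 3 members lie at 0 within their intervals in channel 2 and between -1.80 and -5.43 in channel 1.

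The difference between the sets of arrays lay in channel 1. In that channel, which by the labels holds the same combined PBS RNA on all arrays, Chil4 was lower on the OVA arrays by a log2 change of -5.43 ± 0.101 SE (limma adjusted p = 1.01e-08), Chia1 by -2.90 ± 0.0819 SE (5.57e-08) and Chil1 by -1.80 ± 0.0662 SE (2.57e-07). Of all probes, 9.44% were called lower in channel 1, 9.51% had all OVA arrays below all PBS arrays there, and 21.1% were called in either direction. In channel 2, which by the labels holds the lungs compared, none of the 3 members was called, and 0.00507% of all probes were. The channel 2 change was 0.0021 for Chil4 (95% interval -0.18 to 0.19), -0.02 for Chil1 (-0.21 to 0.16) and -0.03 for Chia1 (-0.35 to 0.30) on the log2 scale. For Chil3 the channels could be set side by side only within the OVA arrays, where channel 1 was the low one as well. Whether channels or group names are exchanged in the deposited table was not tested.

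The other genes of the enzyme family did not share the pattern in size, and the 2 that were called went the other way. Of the 6 in the list, 4 were on the array and Chil5 and Chil6 were not matched to a probe. Ctbs, the lysosomal di-N-acetylchitobiase, was lower (log2 change -0.61 ± 0.0807 SE, adjusted p = 5.67e-04), with groups that did not overlap. Ovgp1, an oviduct glycoprotein, was lower by a log2 change of -0.18 ± 0.0466 SE (adjusted p = 0.0158), with overlapping groups. Chit1, chitotriosidase, was at -0.23 ± 0.166 SE (adjusted p = 0.344) and Chid1, a secreted chitinase-domain protein, at 0.04 ± 0.0516 SE (adjusted p = 0.614). All 4 probes were dim, with intensities between 0.07 and 0.16 in every channel, near the median of all probes. At such levels a fall in channel 1 like that of the members may not have been seen.

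**Figure D4:**
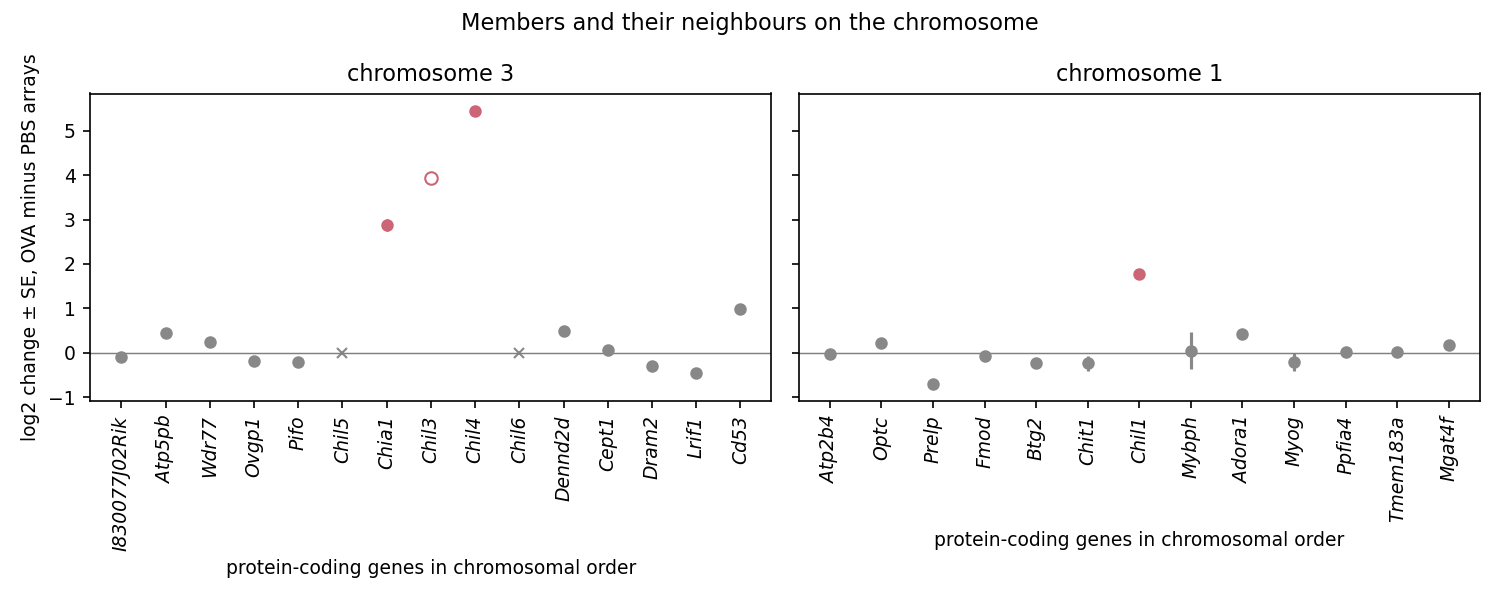
Log2 change (OVA minus PBS arrays, bars are SE) of the members (red) and of the 6 protein-coding genes on each side, in the order of the RefSeq gene table. Chil3 is drawn open at its mean log2 ratio on the OVA arrays, crosses mark genes with no matched probe, and the members stand above all neighbours, the highest of which is Cd53 at 0.99.

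No tested neighbour reached the change of a member. The counts below stand beside 15% of all probes tested called higher and 18.9% lower. On chromosome 3, 10 of the 12 nearest protein-coding genes were tested, of which 4 were higher, 3 lower and 3 were not called, with log2 changes between -0.46 and 0.99 and a median of -0.0134. The highest was Cd53, a tetraspanin of white blood cells, at 0.99 ± 0.073 SE (adjusted p = 2.24e-05), and the lowest Lrif1, a nuclear receptor cofactor, at -0.46 ± 0.0349 SE (adjusted p = 2.67e-05). Around Chil1 on chromosome 1, all 12 neighbours were tested, of which 2 were higher, 1 lower and 9 were not called, between -0.70 for Prelp, a matrix proteoglycan, and 0.43 for Adora1, an adenosine receptor. Chit1, next to Chil1, was not called.

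Genes that act with the family were read from lists, whose counts stand beside 15% of all probes tested called higher and 18.9% lower. Among proteins reported to bind Chil1, 3 of 4 tested were higher and none lower, with a median log2 change of 0.45. Il13ra2, the decoy receptor for IL-13, differed 1.71-fold (0.77 ± 0.114 SE in log2, limma adjusted p = 9.97e-04). Its probe was dim, with a mean of 0.064 in channel 1 of the OVA arrays. With 0.05 added to both channels its log2 change was 0.48. Cd44, a hyaluronan receptor, differed 1.62-fold, a log2 change of 0.70, or 0.69 with 0.05 added. Tmem219, a partner of Il13ra2, differed 1.15-fold. Ptgdr2, a prostaglandin D2 receptor, was at -0.12 ± 0.0806 SE (adjusted p = 0.323). Lgals3, galectin-3, was blank on the PBS arrays, as Chil3 was. On the OVA arrays it averaged an intensity of 16.71 in channel 1 and 56.65 in channel 2.

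Of 7 tested genes that recognise chitin or signal from its receptors, 5 were higher and 1 lower, with a median of 0.29. Clec7a, the receptor dectin-1, was higher by 2.06 ± 0.0663 SE in log2, or 4.16-fold (adjusted p = 4.3e-07), and Mrc1, the macrophage mannose receptor, by 1.96 ± 0.0656 SE. Syk, the kinase that acts behind Clec7a, was 1.56-fold and Fibcd1, a chitin-binding receptor of epithelium, 1.22-fold higher. The sizes for the receptors of macrophages were thus closer to that of Chil1 than to that of Chil4.

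Among IL-4 and IL-13 signalling genes, 9 of 12 were higher and 1 was lower, with a median log2 change of 0.62. Il13 itself was higher by 4.73 ± 0.293 SE in log2, or 26.5-fold (adjusted p = 8.83e-06), and by 3.79 in log2 with 0.05 added to both channels, since its channel 1 on the OVA arrays averaged 0.056. Il4 was 3.19-fold higher, a log2 change of 1.675, or 1.28 with 0.05 added, with a mean of 0.096 in channel 1 of the OVA arrays. Socs1 and Cish, feedback inhibitors of cytokine signalling, were 3.49-fold and 3.25-fold higher. Of 16 tested genes that respond through STAT6, 15 were higher and none was lower, with a median of 2.07. The largest were Clca1, a secreted goblet cell protein, at a log2 change of 6.69 ± 0.162 SE, and Slc26a4, an anion exchanger, at 6.31 ± 0.265 SE with values on only part of the PBS arrays. Retnlb, a resistin-like molecule, was at 4.99 ± 0.193 SE, or 3.74 with 0.05 added, with a mean of 0.034 in channel 1 of the OVA arrays, and Ccl11, eotaxin, at 3.97 ± 0.0883 SE. The change of Chil4 lay within the range of this list, from 0.04 to 6.69, that of Chia1 above its median and that of Chil1 below it.

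**Figure D5:**
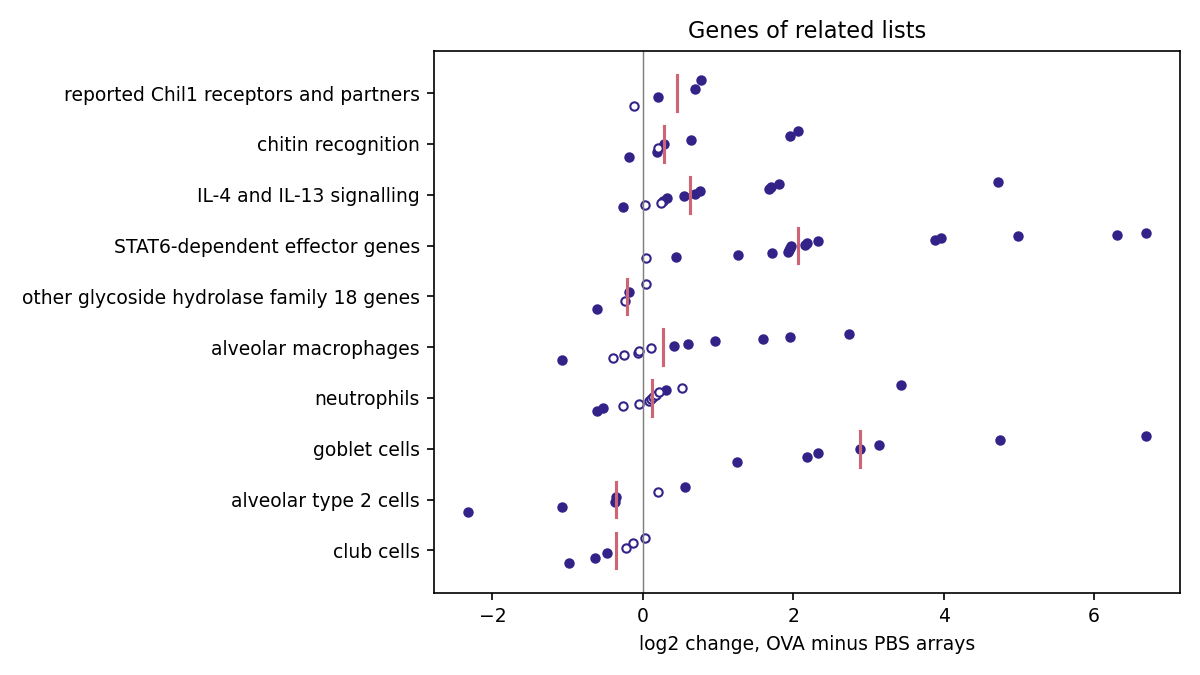
Log2 change (OVA minus PBS arrays) of each tested gene of 10 lists, filled where the adjusted p is under 0.05, with the list's median as a red line. The median is 2.07 for genes that respond through STAT6 and 2.88 for goblet cell markers, against -0.36 for alveolar type 2 cells and -0.35 for club cells. Some genes stand in several lists.

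Markers of the cell types known to make these proteins moved unequally, and their part in the members' change was not tested. Over all probes tested, 15% were called higher and 18.9% lower. All 7 goblet cell markers were higher (median log2 change 2.88), with Agr2, a mucin chaperone, at 4.75 ± 0.126 SE after Clca1. Among these markers Clca1, Muc5ac and Spdef also stand in the list of genes that respond through STAT6. Of 8 tested monocyte and interstitial macrophage markers, 7 were higher and none lower (median 1.40), among them C1qc and C1qb, chains of complement C1q, at 2.82 ± 0.100 and 2.14 ± 0.0712 SE. Of 12 alveolar macrophage markers, 6 were higher, 1 lower and 5 not called (median 0.26), with the integrin Itgax at 2.74 ± 0.0448 SE and Mrc1 as above. The lower one was Siglec5, at -1.075 ± 0.0939 SE (limma adjusted p = 5.58e-05), and Marco, Car4, Pparg, Fabp4 and Fabp5 were not called. Of 12 neutrophil markers, 2 were higher, 2 lower and 8 not called (median 0.12), with Retnlg, a resistin-like molecule, at 3.43 ± 0.0737 SE and S100a8, a calprotectin subunit, at -0.61 ± 0.145 SE. Among 5 tested eosinophil markers 1 was higher and 1 lower (median 0.28), with Epx, eosinophil peroxidase, at 1.75 ± 0.178 SE and Prg3, a granule protein, at -0.08 ± 0.0226 SE. The call of Prg3 was lost with quantile normalised intensities (adjusted p = 0.0516).

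Some markers of lung epithelium and heart muscle were lower, where 15% of all probes tested were called higher and 18.9% lower. Of 6 tested alveolar type 2 markers, 4 were lower and 1 higher (median -0.36). The transcription factor Etv5 was at -2.32 ± 0.138 SE and the lysozyme Lyz1 at -1.07 ± 0.111 SE. The higher one was Cxcl15, at 0.57 ± 0.0957 SE. Sftpb, Sftpc and Slc34a2 had too few values to be tested. Of 6 club cell markers 3 were lower and none higher (median -0.35), with the cytochrome Cyp2f2 at -0.98 ± 0.0649 SE and Scgb3a2 at -0.64 ± 0.134 SE. Of 8 heart muscle markers 2 were lower, none higher and 6 not called, with Ryr2, a calcium channel, at -0.97 ± 0.239 SE. Tnni3, a troponin, was at -0.80 ± 0.255 SE with overlapping groups. The largest change of this list was that of Nppa, at 2.72 ± 1.03 SE, which was not called (limma adjusted p = 0.0807).

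The genes most like each member were taken by the root mean square difference of log2 ratios over arrays, among 21765 named genes with values on all 9 arrays. For Chil4 they were Mmp12, the macrophage elastase, at 0.271, a probe listed as V1rg6 (now Vmn1r75), a vomeronasal receptor, at 0.327, the chemokine Ccl8 at 0.433, Retnlb at 0.465 and the lectin Itln1 at 0.542. For Chia1 they were Ern2, a stress sensor of mucosal epithelium, at 0.164, the Fc receptor Fcgr2b at 0.166, the transcription factor Batf3 at 0.173 and the protease inhibitor Serpina3h at 0.175. For Chil1 the differences were smaller, from 0.0794 for Bub1b, a spindle checkpoint kinase, over 0.0845 for Npl, a sialic acid lyase, 0.0909 for the chemokine Ccl1 and 0.0932 for Ccno, a cyclin, to 0.0954 for Olr1, a scavenger receptor. For Chil3 only the 5 OVA arrays could be used, with 21794 genes, and the nearest were Arg1, arginase, at 0.160, Ccl11 at 0.187, the neutrophil attractant Cxcl3 at 0.205, Fxyd4, an ion pump regulator, at 0.217 and Timp1, a protease inhibitor, at 0.219. No gene named here was listed for more than 1 member. The members' ratios stood apart on every OVA array, so this was largely fixed beforehand by the measure used. The measure reads mainly the size of the ratio on the OVA arrays. There the mean log2 ratio was 1.775 for Chil1 beside 1.821 for Bub1b.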

How the data were processed

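Per the labels' protocols, lung RNA went through a two-round amplification before 2-colour hybridisation. The submitters' processing notes name Agilent Feature Extraction 8.5.1.1. How the authors corrected background, normalized dyes and scaled values was not given in the sources. The deposited table holds 2 intensity values and a p-value for each probe and array, per the file headers; the deposited p-value was only copied. A second deposited table holds values that matched the log10 of channel 2 over channel 1 (99% of differences under 0.00047), so its scale and direction come from that match. There were 0 columns of other samples. Array labels came from the channel 2 source.

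The log2 ratio, and each channel's log2 intensity, were set against the labelled groups (5 OVA, 4 PBS) by limma 3.58.1 under R 4.3.3 (lmFit, eBayes, two-sided, Benjamini-Hochberg over all probes with at least 2 values in each group, adjusted p under 0.05). The fold of a log2 change is 2 raised to it. The step was tested on simulated ratios. Symbols were updated with a RefSeq table of GRCm38.p6: 22962 probes had a current symbol, 3147 a synonym, 4027 kept the symbol of the file and 9328 had none. A gene outside the family is shown by its brightest probe. Named were every family gene, up to 4 genes of each list and up to 2 of each marker list with the largest called change, and the 5 genes most like each member, of which 1 is not reported here; neighbours, Lgals3 and Ptgdr2 were chosen after their values were seen, as were the motifs. Members and lists were chosen with earlier results of these data known. No background or saturation flag, slide or scan record was used. The number of arrays limits the precision.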

Additional observations from a re-analysis of the deposited data

Results flagged for a closer look

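The channel 2 intensity of Chil1 on OVA replicate 4 was 4.67, where the other OVA arrays lay between 5.51 and 5.63, so that its gap to the nearest array was 0.875 of the whole range (critical value 0.71). It was the 1 value set apart among 21 groups of values examined, and chance sets apart about 1 group in 20. Chil1 in channel 1 of the same array was also the lowest, at 1.47, and without this array the log2 change of Chil1 was 1.80.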

How the results depend on the processing

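Chil4, Chia1 and Chil1 kept their direction and their call under all alternatives run other than the turn in sign, with log2 changes of 5.03 to 5.49, 2.63 to 2.98 and 1.74 to 1.80. With the sign of the OVA arrays' ratios turned they were -5.47, -2.91 and -1.77, and the ratios of the OVA arrays against 0 were -5.45 for Chil4, -3.92 for Chil3, -2.89 for Chia1 and -1.77 for Chil1; the latter turn was chosen after seeing the data. Without the turn Chil3 lay between 3.55 and 4.01. The ratio called 13352 probes, 5913 higher and 7439 lower, and 12784 with the turn, 7282 higher and 5502 lower; within-array loess gave 6554 higher and 6609 lower. At least 2-fold were 903. Channel 2 alone called 2 probes (1455 at an unadjusted p under 0.05), and 0 with quantile normalised intensities, 0.05 added, the dimmest 0.25 of probes left out, the replicate block or a trended and robust prior (1182 to 2771 at an unadjusted p under 0.05). Leaving out 1 array gave 1 to 13 probes there, with 13, 10 and 8 without PBS replicate 2, 3 and 4. Deviations of same-numbered OVA and PBS arrays from their group means were correlated at r between -0.126 and -0.0152. Differently numbered arrays were not compared and the sign of the OVA ratios is not settled, so pairing was not excluded. With the replicate block the log2 changes were 5.45, 2.87 and 1.76 (adjusted p = 2.18e-04, 0.00182 and 0.00129) and 9143 probes were called. The low channel 1 level of Chil4, near that of the median probe, limits its fold, and the top of the scale that of Chil3.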
